A study of Mus musculus with 6 samples.

Results

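The 10 genes described here carry out or control MHC class II antigen presentation in the mouse, and were taken by name from a table of normalized RNA-seq counts with 55487 genes. They are H2-Aa, H2-Ab1 and H2-Eb1 (the classical class II chains), Cd74 (the invariant chain), Ciita (the class II transactivator), H2-DMa, H2-DMb1 and H2-DMb2 (the chains of the peptide-exchange factor H2-DM), and H2-Oa and H2-Ob (the chains of its inhibitor H2-O). All 10 were matched to a symbol, and all 10 passed the filter, which asked for 10 normalized counts on average across the 6 libraries. For 9 of them the mean in the PBS libraries alone was also at least 10, whereas Ciita passed only through the pIpC libraries.

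The study asked how loss of Brd9, a bromodomain subunit of a chromatin remodeling complex, alters an established leukemia. Donor cells, CD45.2(+) and on a C57BL/6 background, carried Mx1-Cre, Brd9fl/fl and MLL-AF9 (MA9 in the labels), a fusion oncogene of acute myeloid leukemia that was delivered by a retrovirus together with GFP. These cells were transplanted into irradiated recipients of the genotype CD45.1(+) CD45.2(-), whose label names no Brd9 allele. From the next day the mice were given 3 doses of PBS (3 libraries) or of 20 mg/kg pIpC (3 libraries), and cells from femora and tibiae were collected 10 days after the injection. Both groups shared the floxed alleles, the Cre transgene and the oncogene, and by the labels only the injected agent differed. The Mx1 promoter that drives Cre is switched on by interferon in hematopoietic and other cells, and pIpC, a double-stranded RNA mimic, acts by inducing interferon. Interferon exposure and the intended deletion therefore cannot be told apart in this comparison. The sample labels name GFP+ bone marrow cells and unstranded libraries, while the study's methods describe c-Kit+ selection for RNA-seq and stranded libraries. By the methods the recipients were 6 weeks old, and the number of mice behind each library was not given in the sources used here. The p-values therefore measure the spread between these libraries, which may in part be technical.

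MHC class II molecules display peptides from endocytosed proteins to CD4 T cells, and are known mainly from B cells, dendritic cells and activated macrophages. An alpha and a beta chain assemble on the invariant chain Cd74, which blocks the groove and carries the complex to endosomes. There proteases cut Cd74 down to a short fragment, H2-DM exchanges this fragment for peptide, and H2-O restrains H2-DM. Ciita binds no DNA itself: it is recruited by the factors on the X and Y boxes of class II promoters, namely the RFX complex, CREB and NF-Y, and can be induced by interferon gamma.

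In GRCm38 coordinates, 8 members lie in the class II region of chromosome 17. From H2-Oa (ENSMUSG00000024334, chr17:34092340-34095234) the order is H2-DMa (ENSMUSG00000037649, chr17:34119541-34139101), H2-DMb2 (ENSMUSG00000037548, chr17:34143307-34151555), H2-DMb1 (ENSMUSG00000079547, chr17:34153072-34160230), H2-Ob (ENSMUSG00000041538, chr17:34238903-34254414), H2-Ab1 (ENSMUSG00000073421, chr17:34257689-34269419), H2-Aa (ENSMUSG00000036594, chr17:34282744-34287823) and H2-Eb1 (ENSMUSG00000060586, chr17:34305867-34316674). H2-Aa is on the minus strand and the other 7 are on the plus strand. Ciita (ENSMUSG00000022504, chr16:10480059-10528418) and Cd74 (ENSMUSG00000024610) lie on other chromosomes, both on the plus strand. Counts cover whole genes, from all annotated exons.

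Promoters from RefSeq (GRCm38.p6) were found for 7 of the 10 members, with 8 start sites in all, and the 150 bases before the start are shown for the 6 members in which letters of the X or Y box were found there. They are printed 5′ to 3′ on the strand of the gene, and capitals mark 3 motifs: AACNNATGA, taken as the core of the X box; GATTGG or its reverse complement CCAATC, the Y box; and TGACGTCA, the CRE bound by CREB. Both strands were searched, and the motifs do not overlap each other in these windows. The motif letters were settled after these sequences had been read, so that the matches are a description.
H2-Aa (chr17:34287824-34287973, minus strand): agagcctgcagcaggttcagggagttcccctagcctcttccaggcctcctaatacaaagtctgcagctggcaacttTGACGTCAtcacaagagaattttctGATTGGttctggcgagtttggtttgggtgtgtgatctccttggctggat
H2-Eb1 (chr17:34305717-34305866, plus strand): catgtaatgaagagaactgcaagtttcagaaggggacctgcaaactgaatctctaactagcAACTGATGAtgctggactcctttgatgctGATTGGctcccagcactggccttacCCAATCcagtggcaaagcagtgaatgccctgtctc
H2-DMb1 (chr17:34153041-34153190, plus strand): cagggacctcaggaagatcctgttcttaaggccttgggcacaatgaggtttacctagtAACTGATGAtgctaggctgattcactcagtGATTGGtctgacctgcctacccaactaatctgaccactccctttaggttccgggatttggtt
H2-DMb2 (chr17:34145099-34145248, plus strand): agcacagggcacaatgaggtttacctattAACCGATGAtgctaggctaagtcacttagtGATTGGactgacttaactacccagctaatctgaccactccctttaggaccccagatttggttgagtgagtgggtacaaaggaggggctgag
H2-Ob (chr17:34238755-34238904, plus strand): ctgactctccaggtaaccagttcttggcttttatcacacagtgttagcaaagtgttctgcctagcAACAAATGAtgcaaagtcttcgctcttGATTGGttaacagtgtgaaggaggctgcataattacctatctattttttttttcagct
H2-Oa (chr17:34092229-34092378, plus strand): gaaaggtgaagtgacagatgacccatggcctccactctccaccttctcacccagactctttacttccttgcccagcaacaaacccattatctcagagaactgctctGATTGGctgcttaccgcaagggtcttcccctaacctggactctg

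The X box core began 89 bases before the start of H2-Eb1, 92 before H2-DMb1, 121 before H2-DMb2 and 85 before H2-Ob, each followed by a Y box. Over 32851 RefSeq promoters, searched in the 250 bases before the start, the X box core was found in 2.49%, the Y box in 14.6% and the CRE in 1.55%. An X box core followed by a Y box 5 to 35 bases further on, on the strand of the gene, was found in 9 promoters of the whole set (0.0274%), and 4 of these were H2-Eb1, H2-DMb1, H2-DMb2 and H2-Ob. Of these 4 members 2 rose and 2 fell in the limma fit described below, beside 25% and 20.4% of all tested genes. The 2 that fell, H2-DMb1 and H2-DMb2, share sequence, so that their reads are not fully separable. H2-DMb1 lost the call without any 1 of the pIpC libraries. H2-Aa had a Y box and a CRE, and H2-Oa a Y box. Neither H2-Aa nor H2-Oa had the letters AACNNATGA, which does not show that an X box was absent. Neither of the 2 start sites of H2-DMa had any of these letters within 150 bases, which says only that the letters were not in that window. Within the 250 bases searched over all promoters, 1 of the 2 had a Y box.

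The libraries held 19277439 to 23586722 reads on genes. The targeted gene did not go with the labels. Brd9, whose floxed exons are a small part of the transcript, had 1927, 1946 and 1632 normalized counts in PBS, and 2036, 2263 and 2011 where pIpC is the label. The log2 fold change was 0.20 (SE, the standard error, 0.13, adjusted p = 0.259 in limma; exact permutation test, 2-sided p = 0.1, the smallest that 3 libraries against 3 allow), so that "pIpC" names the label of a library in what follows, and not a measured loss of Brd9. The groups differed far beyond these genes. Of 15020 genes tested, 45.3% were called changed at an adjusted p under 0.1 (limma on log2(normalized count + 1), Benjamini-Hochberg adjustment), 25% higher and 20.4% lower in the pIpC libraries. Of the MLL-AF9 self-renewal genes 4 of 5 were lower, among them Myb, the member of that list with the most counts (log2 fold change -1.24, adjusted p = 0.000705 in limma), and Hoxa9, named after its values were seen, at 4917, 5172 and 5301 normalized counts against 224, 276 and 269. The fifth, Mef2c, rose from 4.33, 11.1 and 1.13 to 1059, 1087 and 1111 normalized counts (log2 fold change 7.72, adjusted p = 0.00013 in limma). Mef2c, at a PBS mean of 5.53, passed the filter only through the pIpC libraries. Xist, which X inactivation requires, was also noticed after the data were seen, at 51.1, 72.9 and 15.8 against 18429, 26172 and 19942 normalized counts, and no library had more than 2 reads of any of 4 Y-linked genes. PBS replicate 3 stood apart from the other PBS libraries: the chi-square per gene was 208 and 181 against replicates 1 and 2, and 6.66 between those. Results that turn on it are given with and without it.

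Of the 10 members, 6 rose in the pIpC libraries, against 25% of all tested genes, and 3 fell, against 20.4%. Ciita is among these 6, and in the median and the counts that follow, although only its high pIpC values let it be tested. H2-Oa was the member that was not called. The median log2 fold change of the members was 1.37, against 0.01 over all tested genes. By role, every classical chain, Cd74 and Ciita rose, every H2-DM chain fell, and of the H2-O chains H2-Ob rose. The groups of libraries did not overlap for 9 members, 6 of them higher and 3 lower, while 56.8% of all tested genes had groups that did not overlap (30.5% higher, 26.3% lower). Within the PBS group 9 of the 10 members were highest in replicate 3, and within the pIpC group 8 of 10 were highest in replicate 1. The shares of all tested genes with these orders are not given here, so that the orders cannot be called particular to the members. Without PBS replicate 3, 7 members rose and 3 fell, among 34.5% and 30.6% of all tested genes, and without pIpC replicate 1, 6 rose and 2 fell, among 19.7% and 14%. edgeR on the recovered reads also found 6 higher and 3 lower, among 23.7% and 22.2%, and the replicate number as a block left 6 and 2, among 22.6% and 18%.

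**Figure D1:**
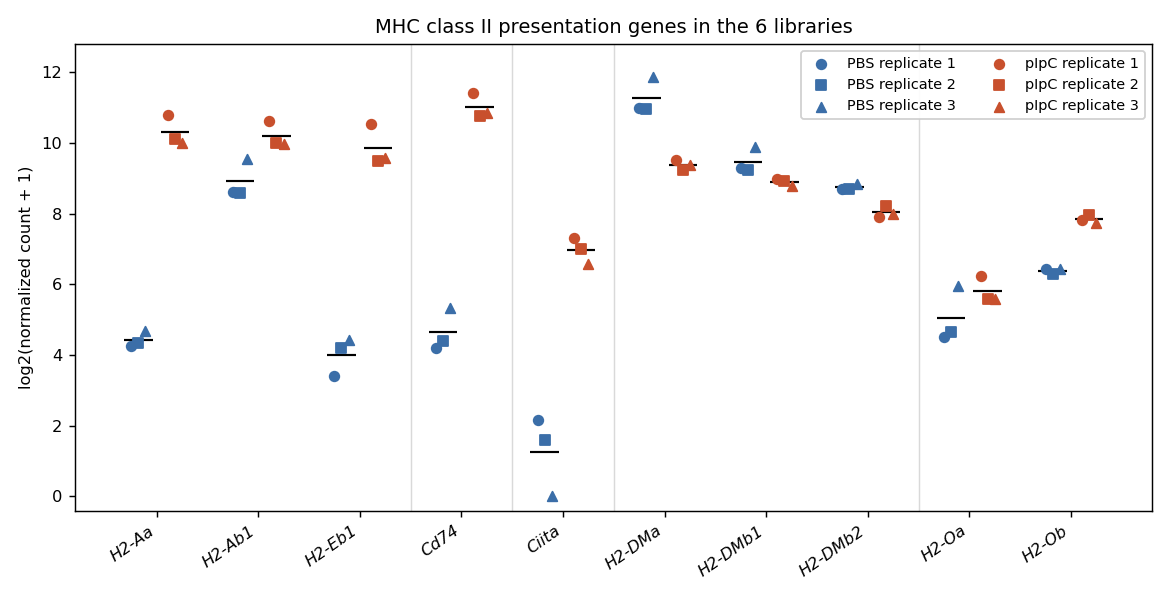
Each point is 1 library: the y axis gives log2(normalized count + 1) for the 10 genes named on the x axis, PBS libraries in blue and pIpC libraries in orange, with a marker shape per replicate and a black line at the group mean (n = 3). H2-Aa, H2-Eb1, Cd74 and Ciita have the widest gaps between groups, the 3 H2-DM genes are lower in pIpC, and PBS replicate 3 of H2-Oa lies within the pIpC range.

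H2-Aa and H2-Eb1, which encode the alpha chain of I-A and the beta chain of I-E, rose most among the classical chains. H2-Aa had 18.2, 19.2 and 24.9 normalized counts in the PBS replicates, and 1787, 1101 and 1017 in the pIpC replicates. The groups lay far apart, at 20.8 ± 3.6 against 1302 ± 422 (SD, n = 3), a ratio of the means of 62.7. Its log2 fold change was 5.87 (SE 0.27, adjusted p = 2.58e-05 in limma). H2-Eb1 had 9.52, 17.2 and 20.4 normalized counts in PBS, and 1480, 716 and 761 in pIpC. It was higher in pIpC replicate 1 than in the other pIpC libraries by a factor of 2.0, yet the lowest pIpC library was still far above the highest PBS library. The log2 fold change of H2-Eb1 was 5.86 (SE 0.39, adjusted p = 7.69e-05 in limma). A fitted log2 fold change of at least 5 was reached by H2-Aa, H2-Eb1 and Cd74, and by 2.76% of all tested genes, with Ciita not counted because its value turns on the pseudocount. The alpha chain of I-E was matched only as a pseudogene entry, H2-Ea-ps, which was at 0 in all 6 libraries. No transcript of a partner for H2-Eb1 was therefore counted.

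H2-Ab1, the beta chain that pairs with H2-Aa, rose far less, and was well counted in PBS too. It had normalized counts of 392, 386 and 742 in PBS and 1572, 1026 and 993 in pIpC. PBS replicate 3 was the highest PBS library, at 1.91 times the mean of the other PBS libraries, and still below every pIpC library. The log2 fold change was 1.28 (SE 0.31, adjusted p = 0.0182 in limma), and the ratio of the means was 2.36. Over 6 fits that each lacked 1 library, the log2 fold change of H2-Ab1 ranged from 1.06 to 1.59.

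Cd74 had the largest fitted change of the members. Its normalized counts were 17.3, 20.2 and 39.6 in PBS, and 2725, 1729 and 1839 in pIpC. The PBS mean of 25.7 ± 12.1 (SD, n = 3) stood against 2098 ± 546 (SD, n = 3) for pIpC, a ratio of 81.6. Its log2 fold change was 6.36 (SE 0.34, adjusted p = 4.02e-05 in limma). An exon of Cd74 shares 12 bases with the microRNA gene Mir5107, which had at most 4.99 normalized counts in any library.

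Ciita was at the detection limit in PBS, with 4, 2 and 0 reads in replicates 1 to 3. In the pIpC libraries 159, 124 and 97 reads were counted, or 158.7, 127 and 93.8 normalized counts, against 3.46, 2.02 and 0 in PBS. Taken over each group, 380 reads against 6 gave a ratio of 63.6, with an exact 95% interval of 28.9 to 174 that covers counting error only. The fitted log2 fold change of 5.71 (SE 0.59, adjusted p = 0.000463 in limma) depends on the pseudocount of 1: it was 3.51 with a pseudocount of 10, 4.95 with quantile normalization and 5.08 without PBS replicate 3, the library with no Ciita read. No library overlapped between the groups, and 329 of its exon bases (3.45%) are shared with Dexi on the opposite strand, whose log2 fold change was -0.09 (adjusted p = 0.865 in limma). If the libraries are unstranded, as labelled, reads in such shared bases cannot be assigned to a strand.

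The H2-DM chains moved the other way. H2-DMa, the alpha chain, had the most normalized counts of all members in PBS, 2028, 1978 and 3741, and fell to 732, 607 and 661 in pIpC. The lowest PBS library was above the highest pIpC library, and the mean was 3.87 times higher in PBS. The log2 fold change was -1.89 (SE 0.26, adjusted p = 0.00161 in limma), and stayed between -2.05 and -1.59 with each library left out. Of its 3448 exon bases, 360 (10.4%) lie opposite exons of Brd2, a gene with more counts that was not called (log2 fold change -0.13, adjusted p = 0.567 in limma).

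H2-DMb2, a beta chain, had normalized counts of 413, 417 and 455 in PBS, and 238, 294 and 255 in pIpC. The groups did not overlap and PBS replicate 3 was only slightly higher than its group. The log2 fold change was -0.71 (SE 0.15, adjusted p = 0.0105 in limma). H2-DMb1, the other beta chain, had 626, 596 and 952 in PBS, and 503, 481 and 437 in pIpC. It was at -0.58 on the log2 scale (SE 0.21, adjusted p = 0.0668 in limma), past the threshold, but became -0.37 without PBS replicate 3 (adjusted p = 0.0106 in limma) and was no longer called without pIpC replicate 1, 2 or 3 (adjusted p = 0.136, 0.165 and 0.198 in limma) or with the replicate number as a block (adjusted p = 0.111 in limma). H2-DMb1 and H2-DMb2 were 94.4% identical over aligned transcript bases, and 369 of 1355 windows of 50 bases of H2-DMb1 (27.2%) also occurred in H2-DMb2. They were the only pair of members to share such windows, so that the split of reads between them is uncertain.

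Of the H2-O chains H2-Ob passed the test and H2-Oa did not, and their ratio, given further on, overlapped between the groups. H2-Ob, the beta chain, had 84.8, 77.9 and 84.9 normalized counts in PBS, and 227, 246 and 214 in pIpC. Replicates differed little in both groups, at 82.5 ± 4.0 and 228.8 ± 16.4 (SD, n = 3), and the mean was 2.77 times higher in pIpC. Its log2 fold change was 1.46 (SE 0.17, adjusted p = 0.0008 in limma). H2-Oa, the alpha chain, had 21.6, 24.3 and 61.1 in PBS, and 73.9, 47.0 and 47.4 in pIpC. PBS replicate 3 lay between the pIpC libraries, and the log2 fold change of 0.76 (SE 0.45, adjusted p = 0.226 in limma) was not called. Without PBS replicate 3 it was 1.22 and passed (adjusted p = 0.00702 in limma). H2-Oa shares 321 exon bases (22.8%) with BC051537 on the opposite strand, which had between 0.865 and 12.3 normalized counts.

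**Figure D2:**
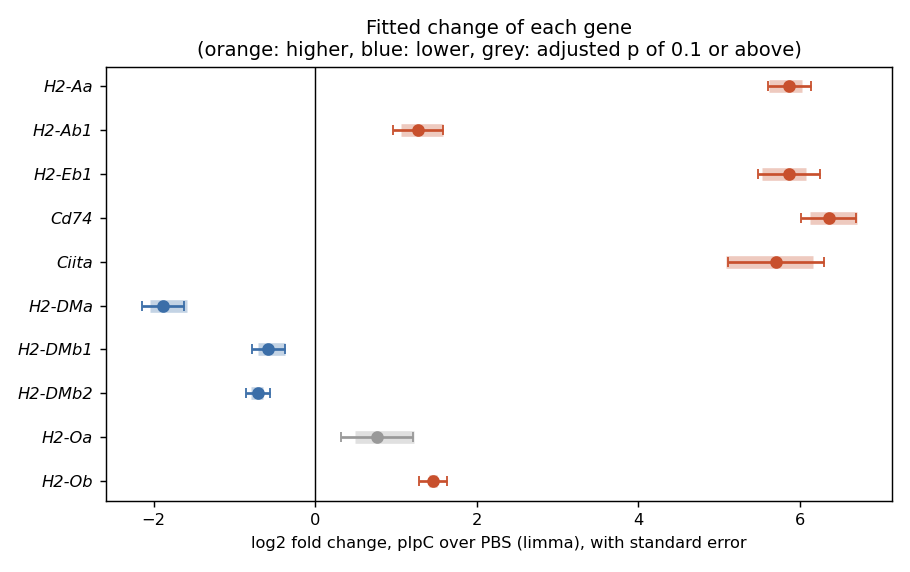
The x axis gives the fitted log2 fold change of each gene, pIpC over PBS (limma, n = 3 against 3), with its standard error as a bar and, as a pale band, the range with each library left out in turn. H2-Aa, H2-Eb1, Cd74 and Ciita lie between 5.71 and 6.36, H2-Ab1 and H2-Ob at 1.28 and 1.46, and H2-DMa, H2-DMb1 and H2-DMb2 between -1.89 and -0.58, while the grey H2-Oa at 0.76 was not called.

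To compare levels between genes, normalized counts were divided by the length of the principal transcript in kb. On this scale the order of the levels in PBS was led by H2-DMa (1558 ± 606, SD, n = 3, the same in what follows), then H2-DMb1 (516 ± 140), H2-Ab1 (418 ± 168) and H2-DMb2 (300.7 ± 16.3), of which the last 3 overlapped their neighbours in range. H2-Oa (32.8 ± 20.3), H2-Ob (30.9 ± 1.5), H2-Aa (18.4 ± 3.2) and Cd74 (18.2 ± 8.6) followed, with overlapping ranges for H2-Oa and H2-Ob and for H2-Aa and Cd74. H2-Eb1 (9.41 ± 3.34) and Ciita (0.304 ± 0.289) were lowest. The H2-DM genes and H2-Ab1 were thus the members counted most in PBS. In pIpC the level per kb was led by Cd74 (1488 ± 387), H2-Aa (1154 ± 374), H2-Ab1 (988 ± 268), H2-Eb1 (591 ± 257) and H2-DMa (402 ± 38), each overlapping the next in range. H2-DMb1 (337 ± 24), H2-DMb2 (184 ± 20), H2-Ob (85.7 ± 6.1), H2-Oa (51.5 ± 14.2) and Ciita (21.0 ± 5.4) were lower, with ranges that lay apart.

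Ratios between partners were taken within each library, so that a scaling of the whole library cancels. The log2 ratio of H2-Aa to H2-Ab1 per kb, the alpha and beta chain of I-A, was -4.33, -4.22 and -4.79 in PBS, and 0.29, 0.21 and 0.14 in pIpC. Per kb, the beta chain was thus counted 21.8 times as often as its alpha chain in PBS, and both were within a factor of 1.16 in pIpC. The difference was 4.66 on the log2 scale (exact permutation test, 2-sided p = 0.1, the smallest possible with 3 against 3). Cd74 to H2-Ab1 moved from -4.72, -4.47 and -4.45 to 0.58, 0.53 and 0.67, and H2-Eb1 to H2-Ab1 from -5.83, -4.95 and -5.65 to -0.55, -0.98 and -0.85. Both were apart between the groups in every library (exact permutation test, 2-sided p = 0.1 each). Of the 7 ratios given here, all but H2-Aa to H2-Ab1 and H2-DM to H2-O were added after the data were seen.

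The log2 ratio of H2-DM to H2-O, the sum of 3 genes against the sum of 2, was 5.25, 5.21 and 5.21 in PBS, and 2.66, 2.76 and 2.85 in pIpC. The ratio of the exchange factor to its inhibitor was lower in every pIpC library, at 6.75 against 37.3 per kb, with a difference of -2.47 on the log2 scale (exact permutation test, 2-sided p = 0.1). Without division by length, the ratio was 4.85, 4.87 and 5.14 in PBS, where replicate 3 was highest, and 2.29, 2.24 and 2.37 in pIpC. H2-DMa to the sum of H2-DMb1 and H2-DMb2 was 0.73, 0.73 and 1.18 in PBS, and -0.25, -0.59 and -0.30 in pIpC (exact permutation test, 2-sided p = 0.1). H2-Oa to H2-Ob overlapped between the groups, at -0.68, -0.39 and 0.82 against -0.32, -1.09 and -0.88 (exact permutation test, 2-sided p = 0.3). With exact tests over 3 libraries against 3, no p can fall below 0.1, so that none passes a threshold of 0.05 before or after adjustment. The seventh, the sum of the H2-DM genes to the sum of the 3 classical chains, was 2.5, 2.47 and 2.33 in PBS, and -1.96, -1.30 and -1.29 in pIpC (exact permutation test, 2-sided p = 0.1).

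**Figure D3:**
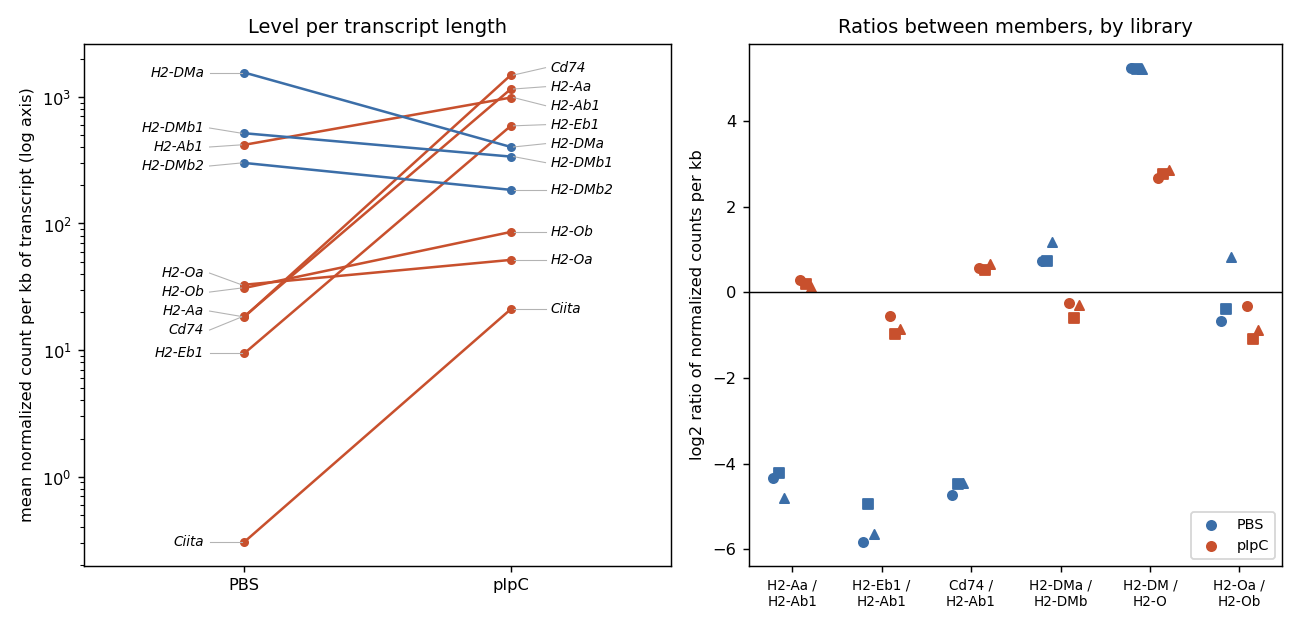
Left, the mean normalized count per kb of transcript in PBS and pIpC on a log axis, 1 line per gene (n = 3 each), orange where the mean was higher in pIpC and blue where it was lower, whatever the test (H2-Oa did not pass it). Right, the log2 ratio of normalized counts per kb for 6 pairs of members, with 1 point per library, PBS in blue and pIpC in orange: H2-Aa to H2-Ab1 went from below -4 to just above 0, and H2-DM to H2-O from above 5 to below 3.

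Genes around the members shared no single direction. Over 249 kb from H2-Oa to H2-Eb2, 8 tested genes were no members, of which 2 rose, 2 fell and 4 did not pass. These shares are near the 25% higher and 20.4% lower of all tested genes. Named with their values in view, Tap1, a peptide transporter subunit for class I, rose (log2 fold change 0.77, adjusted p = 0.00559 in limma) and its partner Tap2 fell (-0.52, adjusted p = 0.0256 in limma), though not without pIpC replicate 2 (adjusted p = 0.112 in limma). The immunoproteasome genes Psmb8 (-0.57, adjusted p = 0.269 in limma) and Psmb9 (0.29, adjusted p = 0.38 in limma), which lie between the H2-DM and H2-Ob genes, were not called. H2-Eb2, a further class II beta gene with 10.4, 4.05 and 3.39 normalized counts in PBS and 19.0, 17.4 and 10.6 in pIpC, was at a log2 fold change of 1.36 (adjusted p = 0.0729 in limma). H2-Eb2 passed the filter only through the pIpC libraries. It lost the call without PBS replicate 2 (adjusted p = 0.167) or pIpC replicate 1 or 2 (adjusted p = 0.19 for each, all in limma). CR974462.4, an antisense transcript within H2-DMa, fell as H2-DMa did (-2.60, adjusted p = 0.0056 in limma), and counts made without strand could not separate the pair. CR974462.4 passed the filter only through the PBS libraries.

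**Figure D4:**
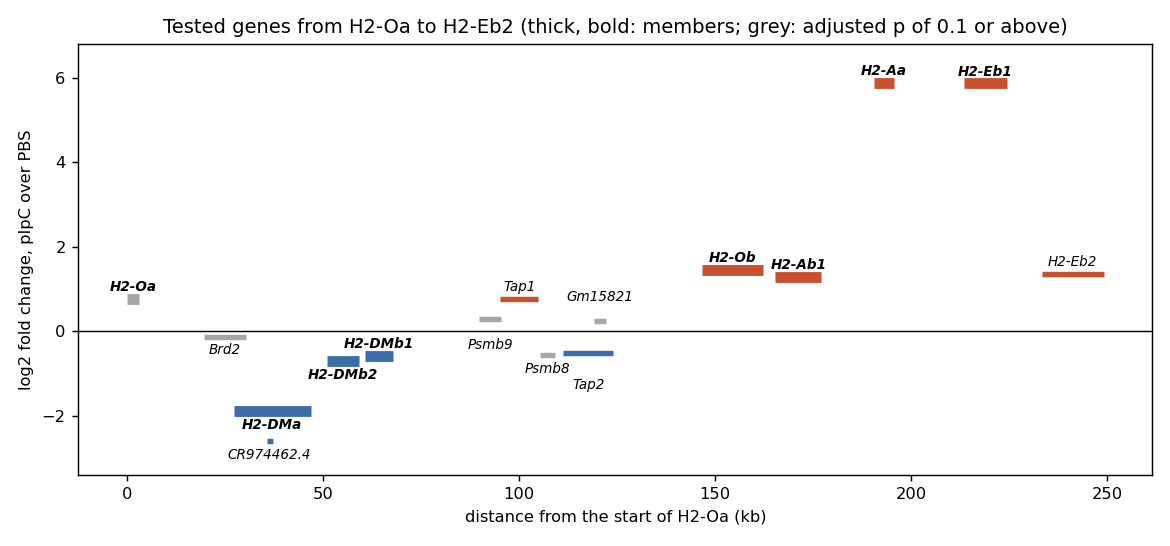
Each bar is 1 tested gene of the class II region, drawn to scale along the x axis as the distance in kb from the start of H2-Oa, at the height of its log2 fold change, pIpC over PBS (limma, n = 3 against 3). Members are thick and bold, and genes that did not pass the test are grey: H2-Aa and H2-Eb1 stand at 5.87 and 5.86, while their neighbours H2-Ab1 and H2-Eb2 are at 1.28 and 1.36 and the H2-DM genes are below 0.

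The factors that bind the class II promoter did not rise as a group. Of 13 promoter regulators, 5 rose and none fell (limma), at a median log2 fold change of 0.06, beside 25% of all tested genes higher and 20.4% lower. The genes that rose were Irf4, Prdm1, Irf1, Nfyb and Irf8, of which Irf8 lost the call without PBS replicate 2 or any of the 3 pIpC replicates (adjusted p = 0.168 to 0.244 in limma). Prdm1, at a PBS mean of 8.81, passed the filter only through the pIpC libraries. Irf4, a factor of lymphoid and dendritic cells, was highest, from 13, 13.2 and 18.1 to 188, 177 and 152 normalized counts (log2 fold change 3.47, adjusted p = 0.000106 in limma). Rfxap, an RFX subunit, was the lowest, at -0.70 (adjusted p = 0.141 in limma), and was called lower with the replicate block (adjusted p = 0.0915 in limma), without PBS replicate 1 (0.0801), by edgeR (0.0997) and by DESeq2 (0.0652). Its partners Rfx5 (0.13, adjusted p = 0.822 in limma) and Rfxank (-0.10, adjusted p = 0.699 in limma) were not called either. Without PBS replicate 3, in which Rfxap had 863 against 369 and 409 normalized counts, 6 regulators of the list were higher and 5 lower, beside 34.5% and 30.6% of all tested genes, and Rfxap was at -0.31 (adjusted p = 0.0515 in limma).

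Of the genes of interferon gamma signalling and response, 14 of 15 could be tested, and 10 rose and 1 fell, beside 25% and 20.4% of all tested genes, with a median log2 fold change of 0.79. Cxcl9, a chemokine induced by interferon gamma, rose most, from 1.73, 3.04 and 1.13 to 84.8, 30.7 and 37.7 normalized counts (log2 fold change 4.04, adjusted p = 0.00101 in limma). Cxcl9 is counted among the 10, although it passed the filter only through the pIpC libraries. Ifngr1, a receptor chain, fell (-0.68, adjusted p = 0.00396 in limma). Ifng itself, which T and NK cells release, had 1 read in 1 pIpC library and none in the other 5, which allows up to 3 reads in each. Nlrc5, the class I counterpart of Ciita, named after its values were seen, rose from 212, 211.5 and 105 to 1053, 843 and 677 normalized counts (log2 fold change 2.32, adjusted p = 0.00159 in limma).

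Among 10 endosomal processing genes 3 rose and 1 fell, shares near or below the 25% and 20.4% of all tested genes, and the median log2 fold change was 0.25. Lgmn, an endosomal protease, rose most (2.71, adjusted p = 0.000291 in limma). Of the others, Sppl2a, which rose, and Ctsh, which fell, each lost the call without any of the 3 pIpC replicates (adjusted p = 0.106 to 0.124 and 0.15 to 0.171 in limma). Ctss, the protease that makes the last cut in Cd74, was named after its values were seen and went from 353, 271 and 417 to 1281, 832 and 773 normalized counts (log2 fold change 1.45, adjusted p = 0.00439 in limma). Cst3, an inhibitor of such proteases, was lowest, at -0.97 (adjusted p = 0.105 in limma), with 6887, 6985 and 19648 normalized counts in PBS, and replicate 3 well above the others, against 5518, 4720 and 4825 in pIpC. Without PBS replicate 3 it was -0.47 and passed (adjusted p = 0.000881 in limma), and the list then had 6 higher and 2 lower, beside 34.5% and 30.6% of all tested genes. It also passed without PBS replicate 1 or 2 (adjusted p = 0.0727 and 0.0851 in limma), with quantile normalization (0.0392), with the replicate block (0.0898), and by edgeR (0.0691) or DESeq2 (0.0209).

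In the list for turnover and trafficking of class II molecules, 3 of 7 rose and none fell (limma), beside 25% and 20.4% of all tested genes, and the median log2 fold change was 0.40. Cd83, which stabilizes class II at the cell surface by opposing the ubiquitin ligase March1, rose from 4.33, 4.05 and 5.66 to 116, 37.8 and 30.0 normalized counts (log2 fold change 3.20, adjusted p = 0.00403 in limma). Cd83 passed the filter only through the pIpC libraries, and pIpC replicate 1 was at 3.42 times the mean of the other pIpC libraries. March1 itself rose as well, named after its values were seen, from 126, 109 and 65.6 to 511, 605 and 546 (log2 fold change 2.50, adjusted p = 0.00049 in limma). Rab7, a late endosomal GTPase, was lowest (-0.29, adjusted p = 0.155 in limma). Of 6 costimulatory ligands 4 could be tested, their median log2 fold change was 0.52, and Cd86 (3.22, adjusted p = 0.00203 in limma) and Cd80 (0.98, adjusted p = 0.014 in limma) rose. Cd274, the ligand of PD-1, was the lowest of these (-0.18, adjusted p = 0.594 in limma). Cd86, at a PBS mean of 8.23, passed the filter only through the pIpC libraries. Without PBS replicate 3 both Rab7 (-0.17, adjusted p = 0.0293 in limma) and Cd274 (-0.39, adjusted p = 0.0689 in limma) were called lower.

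**Figure D5:**
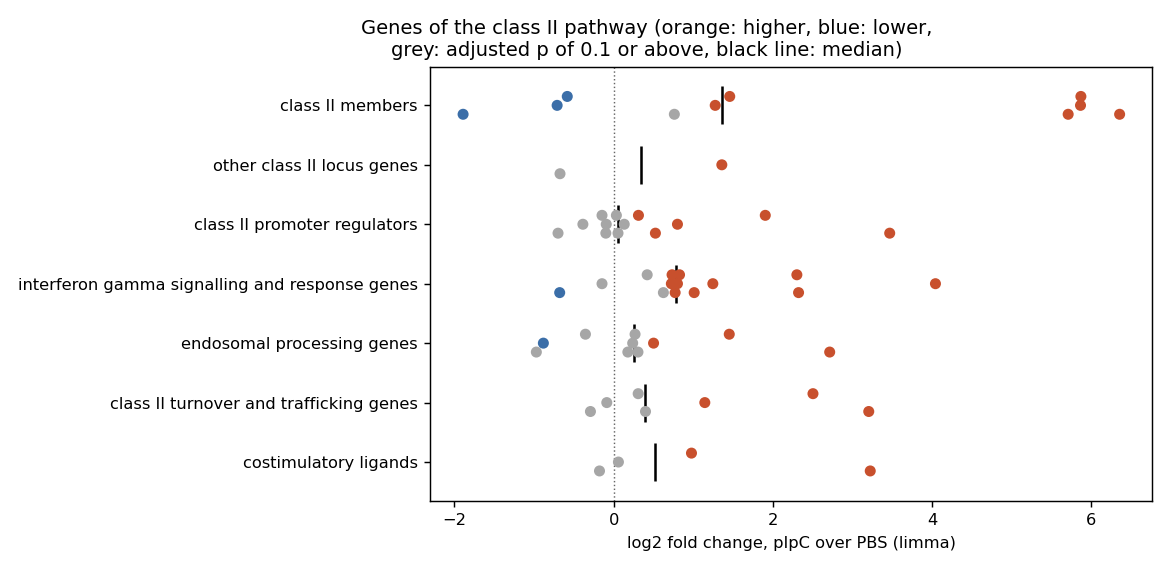
Each point is 1 tested gene at its log2 fold change, pIpC over PBS (limma, n = 3 against 3), for the 10 members in the top row and 6 lists of related genes below, with a black line at the median of each list. The medians run from 1.37 for the members and 0.79 for the interferon gamma list down to 0.06 for the promoter regulators.

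Most markers of other cell types were also higher in the pIpC libraries, beside 25% of all tested genes higher and 20.4% lower. Some of those tested, such as Ms4a1, passed the filter only through the pIpC libraries. In bulk samples, fewer cells of a type and less RNA per cell cannot be told apart, and the part of such cells in the class II counts was not tested. All 12 B cell markers tested were higher, with a summed level of 149.8 to 316 normalized counts in PBS and 1612 to 2842 in pIpC, and Ms4a1 was at 0 in every PBS library. Cd79b, the most counted of them, had 153, 116 and 252 in PBS and 375, 374 and 433 in pIpC. All 10 dendritic cell markers tested were higher (summed level 285 to 401 against 1145 to 1479), Ccr7 being at 0 in every PBS library, and Flt3, the most counted, went from 274, 184 and 147 to 449, 693 and 490. Of 12 macrophage markers 8 were higher and 3 lower, and their sum was lower (12663 to 16776 against 8069 to 9741), with Vcam1 leading at 9265, 9984 and 6015 against 3909, 4327 and 5096. All 8 T and NK cell markers tested were higher (summed level 209 to 399 against 3983 to 4642), most of it Nkg7, although Lat lost the call without any library but PBS replicate 3 and Klrb1c without pIpC replicate 1 or 3 (adjusted p = 0.176 to 0.219 and 0.1 to 0.106 in limma). Erythroid markers rose in 9 of 9 (20.8 to 37.3 against 3808 to 5733, led by Hba-a1, with Slc4a1 at 0 in every PBS library), and neutrophil markers in 9 of 10 (71080 to 146718 against 2046720 to 2139170, led by Ngp).

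Within the pIpC group most class II genes and the B cell markers ranked the libraries differently. H2-Aa, H2-Ab1, H2-Eb1, Cd74 and Ciita were all highest in pIpC replicate 1, at 1.44 to 2.0 times the mean of the other pIpC libraries. H2-DMb2 and H2-Ob were highest in replicate 2 instead. The summed B cell markers were 1612 in replicate 1, 2399 in replicate 2 and 2842 in replicate 3, and the median marker was at 0.54 times the mean of the others in replicate 1. For dendritic cell markers that ratio was 1.10, for macrophage markers 1.09, for T and NK cell markers 1.11, for erythroid markers 1.21, for neutrophil markers 0.99 and for the interferon gamma list 1.26. This ordering of 3 libraries was noticed in the data and has no test.

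The genes whose profile over the 6 libraries was most like the mean of the 3 classical chains were Nkg7, Ifitm3, H2-Q6, Fcnb and Tnfsf13b, out of 10479 genes that averaged 100 normalized counts or more. Likeness was the root mean square distance between log2 profiles centred on their own means, which was 0.24 for Nkg7 and for Ifitm3, 0.26 for H2-Q6, 0.28 for Fcnb and 0.29 for Tnfsf13b. Nkg7 is a granule protein of cytotoxic lymphocytes, Ifitm3 an interferon-induced membrane protein, H2-Q6 a class I-like gene, Fcnb a myeloid lectin and Tnfsf13b the B cell survival factor BAFF. H2-Q6, with 54.5, 72.9 and 75.8 normalized counts in PBS and 2981, 1441 and 1242 in pIpC, was also highest in pIpC replicate 1. The mean profile stands between its members, since H2-Ab1 moved less: the distance was 0.77 for H2-Aa, 0.78 for H2-Eb1 and 1.54 for H2-Ab1. Of the other members Cd74 (1.02) and Ciita (1.12) were nearest, and H2-DMa (3.12) farthest.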

How the data were processed

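RNA was poly(A)-selected and made into libraries labelled unstranded, whereas the study's methods describe stranded ones. The authors deposited 1 table of normalized counts (a signal: the gene count divided by 1 size factor per library) for 55487 genes, of which 55227 were given a symbol from GENCODE M21 on GRCm38. In each library all values above 0 (100%, tolerance 0.01) were whole multiples of its smallest step, so reads could be recovered. The submitters' processing notes name HISAT2 2.2.1, SAMtools, featureCounts (Subread) and edgeR, whereas the study's methods describe STAR with RSEM and DESeq2, and which of these made the table is not settled by the file.

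Here limma 3.58.1 (R 4.3.3) with an intensity trend was fitted to log2(normalized count + 1) of 15020 genes, those averaging at least 10, with no replicate block, and called at a Benjamini-Hochberg adjusted p under 0.1. All p-values are adjusted over these genes. Fold changes on this scale are understated for low genes. Alternatives were a pseudocount of 10, no filter, quantile normalization, a replicate block, each library left out, a threshold of 0.05, and edgeR 4.0.16 and DESeq2 1.42.0 on recovered reads. The scripts were tested on simulated data. Deviations of same-numbered libraries from their group means correlated at -0.117, 0.143 and 0.0405, so the numbers were not treated as pairs. No libraries within a group agreed within sampling noise (chi-square per gene 6.66 to 208).

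Named genes are the members, Brd9, the highest and lowest gene of each pathway list, the most counted gene of each marker list, and the 5 nearest profiles; others are said to be named after their values were seen. The members and lists were chosen with earlier results of these data known. Cd74 was given no sequence, and protein sequences were not used here.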

Additional observations from a re-analysis of the deposited data

How the results depend on the processing

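For the 10 members, 124 of 130 alternative values kept the direction and the side of the threshold, and none reversed. The exceptions were H2-DMb1, no longer called at an adjusted p under 0.05 (its value was 0.0668), with the replicate block (0.111) or without any of the 3 pIpC replicates, and H2-Oa, called without PBS replicate 3. The number of members that rose was 6 to 7 and of those that fell 2 to 3 over all alternatives, including edgeR and DESeq2 on recovered reads, and the median log2 fold change was 1.26 to 1.53. With 1 library left out, the difference in the log2 ratio of H2-Aa to H2-Ab1, pIpC minus PBS, lay between 4.49 and 4.77. For H2-DM to H2-O the difference lay between -2.51 and -2.42. The smallest possible p of the exact permutation test was then 0.2. Without division by length, the difference for H2-DM to H2-O was -2.65.

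The replicate block called 6095 genes in place of 6808 and changed the call of no member other than H2-DMb1. With same-numbered pairs the exact test of either ratio gave 0.25, the smallest it allows. Over all genes, leaving out 1 library called 4650 to 9783, the most without PBS replicate 3. Quantile normalization moved the median of all genes to -0.12 and the share of calls that were higher from 55.1% to 44.3%, and kept each member's call and direction. Brd9 stayed between 0.06 and 0.24 and was called under none. H2-Eb2 was also lost with no filter (adjusted p = 0.117), quantile normalization (0.583) or DESeq2 (0.113). Ciita in PBS rests on 6 reads. Causes were not tested.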
